A study of Mus musculus with 12 samples.

Results

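The 32 genes described here encode the folding machinery of the endoplasmic reticulum (ER) and the sensors that watch over it. They were chosen by name as a list of unfolded protein response and ER chaperone genes, out of 54532 genes in the table. The rule uses no measured values, though the list was drawn up with earlier results of these data known. By role they comprise 5 chaperones (Hspa5, Hsp90b1, Calr, Canx and Hyou1), 4 protein disulfide isomerases (Pdia3, Pdia4, Pdia6 and P4hb) and 6 co-chaperones and cofactors (Dnajb9, Dnajb11, Dnajc3, Sdf2l1, Creld2 and Manf). A further 9 act in the disposal of misfolded proteins (Herpud1, Sel1l, Syvn1, Edem1, Edem2, Derl1, Derl2, Derl3 and Selenos), 4 are stress sensors (Atf6, Atf6b, Ern1 and Eif2ak3), 1 is the transcription factor Xbp1 and 3 serve protein entry into the ER (Sec61a1, Sec61b and Ssr1). All 32 are protein-coding, and each was found under 1 identifier with a symbol match. Of these, 31 passed the filter on low values, an FPKM of 1 or more in 3 or more libraries, among 13012 genes that did so. FPKM is a fragment count normalised for gene model length and sequencing depth. Derl3 did not pass: it held 0 to 10 fragments per library, was listed at 0 in 1 combination library and reached 0.307 FPKM at most.

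RNA was sequenced from MC38 cells, a mouse colorectal cancer line, in 4 groups of 3 libraries. The combination group received both nintedanib at 3 µM and X-rays at 8 Gy, the nintedanib group the drug alone, the radiation group the X-rays alone, and the control group neither. The labels give 24 hours for both treatments and no time for the controls. All groups are the same line, grown without host tissue. Nintedanib blocks the tyrosine kinase receptors for PDGF, FGF and VEGF. Libraries held 16103528 to 18196615 fragments. The mesenchymal genes Vim (498 to 618 FPKM) and Sparc (671 to 948 FPKM) were high in every library. Of the same list, Fn1 held 45.95 to 73.21 FPKM, Cdh2 3.51 to 5.02 and Col1a1 1.73 to 2.84. Summed FPKM of the 5 mesenchymal markers was 1430 to 1596 in combination and 1416 to 1541 in nintedanib libraries. It was 1268 to 1367 in radiation and 1277 to 1396 in control libraries. The epithelial marker Epcam was listed at 0 in all 12 libraries, whereas Cdh1 held 4.12 to 8.73 FPKM. The leukocyte marker Cd3e and the endothelial marker Emcn were listed at 0 throughout. The 7 epithelial markers summed to 11.3 to 13.7 FPKM in combination libraries, 6.48 to 9.53 in nintedanib, 6.80 to 7.19 in radiation and 5.04 to 5.88 in control libraries, led by Cdh1. The 5 leukocyte markers, led by Lyz2, summed to 0.639 to 1.59 FPKM in combination, 0.557 to 1.18 in nintedanib, 0.436 to 0.881 in radiation and 0.132 to 0.308 in control libraries. The 4 endothelial markers, led by Tek, summed to 1.4 to 2.4 FPKM in combination, 1.42 to 1.80 in nintedanib, 1.01 to 1.47 in radiation and 1.12 to 1.45 in control libraries. The part of these markers in the results below was not tested. Nintedanib replicate 3 stood apart, with 0.0174% of its fragments in small RNA genes against 0.0868 to 0.199% in the other libraries. Mitochondrial genes made up 2.12% of that library against 1.23 to 1.64% elsewhere, and its FPKM sum of 268411 was the lowest of the 12.

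Secreted and membrane proteins enter the ER as unfolded chains, where Hspa5 (BiP) holds them, Calr and Canx bind their sugar chains, and disulfide isomerases join their cysteines. Chains that fail to fold are led by Edem proteins, Sel1l and the ubiquitin ligase Syvn1 back to the cytosol for destruction. When unfolded chains build up, the sensors Atf6, Ern1 (IRE1) and Eif2ak3 (PERK) are switched on: Atf6 is cut to release a transcription factor, Ern1 splices Xbp1 mRNA, and Eif2ak3 phosphorylates eIF2 alpha and so raises Atf4 translation. Cut Atf6 and spliced Xbp1 bind ER stress response elements in chaperone promoters. Sensor activity is set by cleavage, splicing and phosphorylation, which mRNA levels do not measure.

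Because these elements are the known shared feature of many ER chaperone promoters, the sites found in members are shown here before the values. A window of 250 bases upstream of the RefSeq transcript start (GRCm38.p6) was at hand for 27 of the 32 genes. The element ERSE was searched on both strands as CCAAT and CCACG with any 9 bases between them. It was present in 9 of the 27 member genes with a window (33.3%). Counted by window and not by gene, it was in 0.113% of 32851 windows of all genes, a set that includes the members. Because the element is known from ER chaperone promoters, this contrast does not test the list. The related element ERSE-II, searched on both strands as ATTGG and CCACG with any 1 base between them, was present in Herpud1 (3.7% of member genes with a window) and in 0.0304% of all windows. The sites of the tested members follow, 5′ to 3′ in the motif's own orientation, with the fixed letters of the motif in capitals.
Hspa5, chr2:34772025-34772043, gene strand: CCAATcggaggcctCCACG
Hsp90b1 far site, chr10:86705638-86705656, gene strand: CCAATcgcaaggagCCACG
Hsp90b1 near site, chr10:86705533-86705551, opposite strand: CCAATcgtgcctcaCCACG
Calr, chr8:84847075-84847093, opposite strand: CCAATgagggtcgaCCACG
Canx, chr11:50325800-50325818, gene strand: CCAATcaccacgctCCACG
Pdia6, chr12:17266491-17266509, gene strand: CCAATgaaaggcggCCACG
Dnajc3, chr14:118937827-118937845, gene strand: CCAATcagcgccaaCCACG
Creld2, chr15:88819520-88819538, opposite strand: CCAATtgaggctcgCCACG
Syvn1, chr19:6046532-6046550, gene strand: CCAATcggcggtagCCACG
Herpud1, chr8:94386377-94386387, gene strand: ATTGGgCCACG
The Hspa5 site spans 65 to 47 bases upstream of the RefSeq start and lies inside the deposited gene span, which begins further upstream. The other sites lie outside the deposited spans, upstream of their genes. Derl3, which was too low to test, was the ninth gene with an ERSE. The element UPRE, TGACGTGG, was in none of the member windows and in 0.563% of all windows, and the cAMP response element TGACGTCA was likewise in none, against 1.55% of all windows. The Herpud1 window is printed whole because it held both ERSE-II, in capitals, and an Atf4-type element, TGATGCAA, on the opposite strand 112 to 105 bases upstream (in 0.791% of all windows).
Herpud1, chr8:94386179-94386428, plus strand: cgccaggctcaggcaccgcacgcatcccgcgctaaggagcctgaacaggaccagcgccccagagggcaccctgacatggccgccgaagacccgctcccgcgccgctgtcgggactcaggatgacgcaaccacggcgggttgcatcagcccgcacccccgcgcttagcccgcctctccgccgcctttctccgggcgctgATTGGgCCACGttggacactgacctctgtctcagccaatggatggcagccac

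Across the comparisons with control, more of the ER genes were higher than lower. With the combination, 17 of 31 tested genes were higher and 5 lower by limma at a Benjamini-Hochberg adjusted p under 0.05, where 22.3% of all tested genes were higher and 25.0% lower (47.2% either way). With nintedanib alone 14 were higher and 5 lower, against 19.7 and 22.0% of all tested genes (41.6% either way). Without nintedanib replicate 3 these counts were 15 and 5, and without nintedanib replicate 1 they were 11 and 5. Leaving out control replicate 1, control replicate 3 or the filter on low values also gave 11 higher. With radiation alone 9 were higher and 2 lower, against 8.04 and 9.9% (17.9% either way). The median log2 fold change of the 31 genes was 0.33 for the combination, 0.24 for nintedanib and 0.14 for radiation, beside medians of -0.03, -0.02 and -0.04 over all tested genes. Fold changes were fitted to log2(FPKM + 1), a scale that shrinks the changes of low genes. RNA was taken from whole cultures, so a shift in the kinds of cells present and a change of RNA per cell cannot be told apart. The labels state that the experiment was independently repeated 3 times; p-values measure the spread between those repeats.

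The radiation count was the least stable of these: it was 5 without control replicate 3, without radiation replicate 1 or without radiation replicate 2. Rescaling every library to the same FPKM sum gave 19 higher and 5 lower for the combination, 17 and 5 for nintedanib, and 12 and 1 for radiation. The same rescaling moved the share of higher calls among all called genes to 60.0% from the deposited scale's 47.2% for nintedanib and to 69.7% from 44.8% for radiation. No called value of a member changed sign under any of the 23 other settings.

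Called in all 3 comparisons with control were 11 of 31 genes, beside 10.2% of all tested genes (3.69% higher in all 3 and 5.55% lower in all 3). Of these, 9 were higher (Hsp90b1, Canx, Pdia3, Pdia6, Dnajc3, Edem1, Edem2, Selenos and Eif2ak3) and 2 lower (Atf6 and Atf6b). The 3 comparisons share the control libraries. Hyou1, Pdia4, Dnajb9, Sel1l, Syvn1, Derl1, Derl2, Xbp1 and Sec61a1 were called in none of the 6 comparisons made. The share of all tested genes without any call was not counted.

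**Figure D1:**
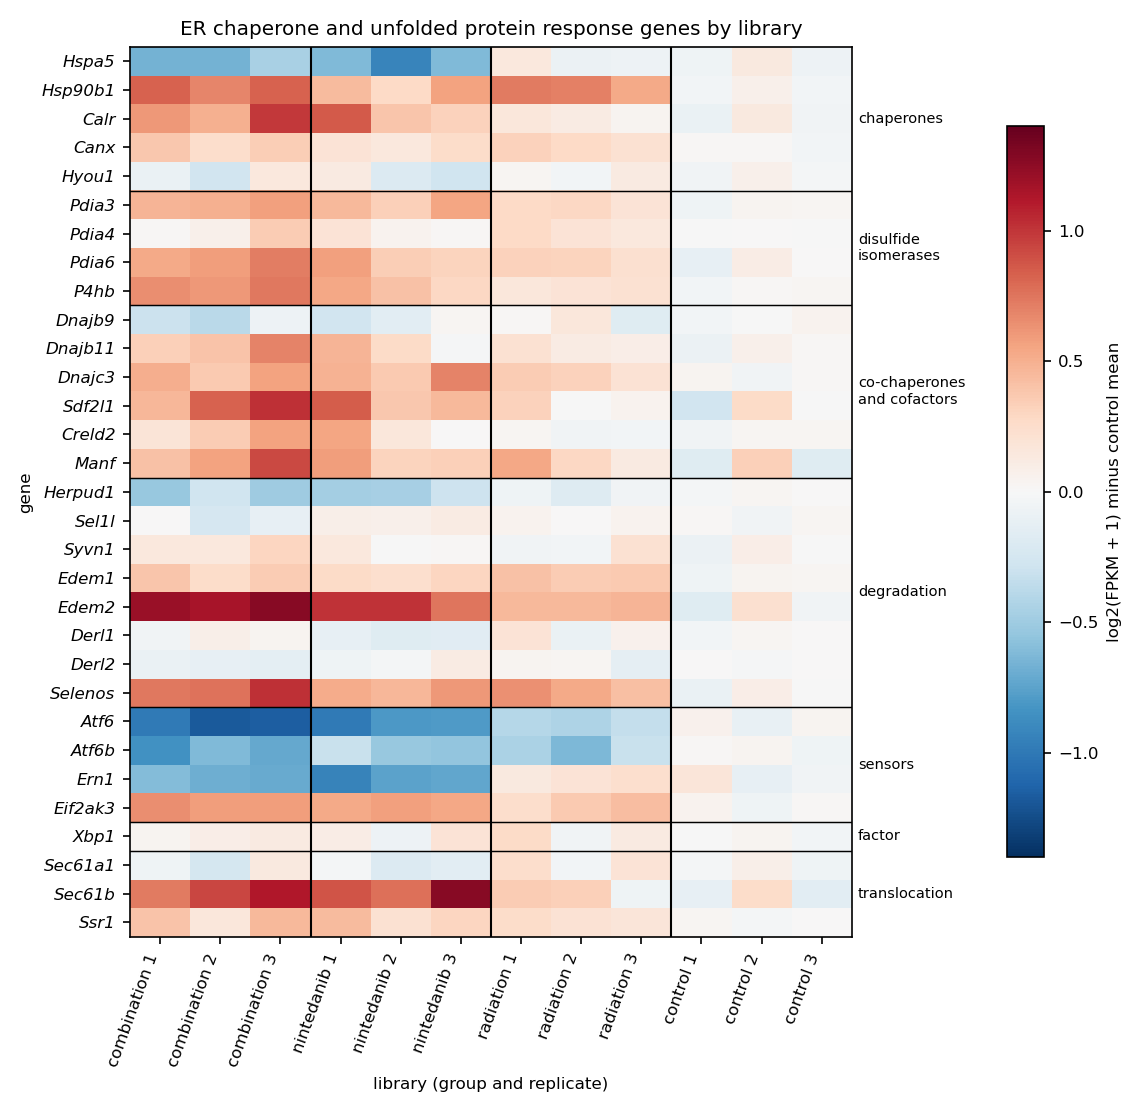
Colour gives log2(FPKM + 1) of each tested ER gene (rows, grouped by role) in each of the 12 libraries (columns) minus the mean of the 3 control libraries, with red for higher and blue for lower. Hspa5, Herpud1, Atf6, Atf6b and Ern1 are blue in every combination and nintedanib library, whereas Hsp90b1, Edem2, Selenos and Eif2ak3 are red in every treated library.

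The sensors moved apart from one another. Atf6, Atf6b and Ern1 fell with the combination and with nintedanib, and Eif2ak3 rose. Radiation lowered Atf6 and Atf6b and raised Eif2ak3, but left Ern1 without a call.

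Atf6 (chr1:170704674-170867771, minus strand, GRCm38), which encodes the membrane-bound factor cut during ER stress, showed the largest fall of any member. It stood at 11.7, 10.1 and 10.3 FPKM in the combination libraries, 11.7, 13.4 and 13.5 in nintedanib, 18.0, 17.6 and 18.9 in radiation, and 25.3, 22.5 and 24.9 in control libraries. Every treated library lay below every control, and the nintedanib and combination libraries also lay below every radiation library. The log2 fold change was -1.11 ± 0.08 for the combination (SE, adjusted p 1.26e-06), -0.87 ± 0.08 for nintedanib (adjusted p 8.18e-06) and -0.39 ± 0.08 for radiation (adjusted p 0.00676). The fall with radiation was not called after rescaling to a common FPKM sum, with or without small RNA genes (adjusted p 0.0622 to 0.0911). Within irradiated cells the drug lowered Atf6 by a log2 fold change of -0.71 ± 0.08 (adjusted p 5.16e-05).

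Atf6b, the close relative of Atf6 (chr17:34647146-34655074, plus strand), was likewise lowest on average with the combination and highest in controls, at a higher level than Atf6. Unlike Atf6, it had nearly the same mean with nintedanib and with radiation (31.7 and 31.9 FPKM). Combination libraries held 24.0, 28.3 and 26.4 FPKM, nintedanib libraries 35.2, 30.1 and 29.7, radiation libraries 32.3, 28.2 and 35.3, and control libraries 44.6, 45.3 and 42.3. All 9 treated libraries were below the controls, and nintedanib and radiation libraries overlapped. The log2 fold changes against control were -0.73 ± 0.10, -0.47 ± 0.10 and -0.46 ± 0.10 for combination, nintedanib and radiation (limma, adjusted p 9.98e-05, 0.00247 and 0.00905). Combination and radiation libraries overlapped, and that difference (-0.27 ± 0.10, adjusted p 0.0485) lost its call in 12 of the 23 other settings.

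Ern1, the kinase and RNase that splices Xbp1 (chr11:106394650-106487852, minus strand), separated the drug-treated cells from the rest. It measured 5.91, 5.53 and 5.44 FPKM in combination libraries, 4.52, 5.27 and 5.37 in nintedanib, 10.6, 11.0 and 11.4 in radiation, and 10.8, 8.69 and 9.14 in control libraries. The 6 drug-treated libraries all lay below the 6 others, while radiation and control libraries overlapped. Against control, the log2 fold change was -0.67 ± 0.08 for the combination, -0.80 ± 0.08 for nintedanib and 0.19 ± 0.08 for radiation (limma, adjusted p 7.08e-05, 2.54e-05 and 0.151). In irradiated cells the drug effect was -0.85 ± 0.08 (adjusted p 2.53e-05), the largest fall among the members in that comparison.

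Eif2ak3, the kinase that phosphorylates eIF2 alpha (chr6:70844515-70905245, plus strand), went the other way. Combination libraries held 8.07, 7.67 and 7.65 FPKM, nintedanib libraries 7.31, 7.58 and 7.37, radiation libraries 5.84, 6.42 and 6.79, and control libraries 4.98, 4.51 and 4.80. All treated libraries exceeded all controls, and combination libraries exceeded the radiation libraries. Log2 fold changes against control were 0.61 ± 0.06, 0.55 ± 0.06 and 0.35 ± 0.06 for combination, nintedanib and radiation (limma, adjusted p 1.76e-05, 4.67e-05 and 0.00416). The gene rested on 470 to 874 fragments per library, the least depth of the sensors. The call for the combination against radiation (0.26 ± 0.06, adjusted p 0.00789) was lost under both common-sum rescalings (adjusted p 0.0568 to 0.0809).

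**Figure D2:**
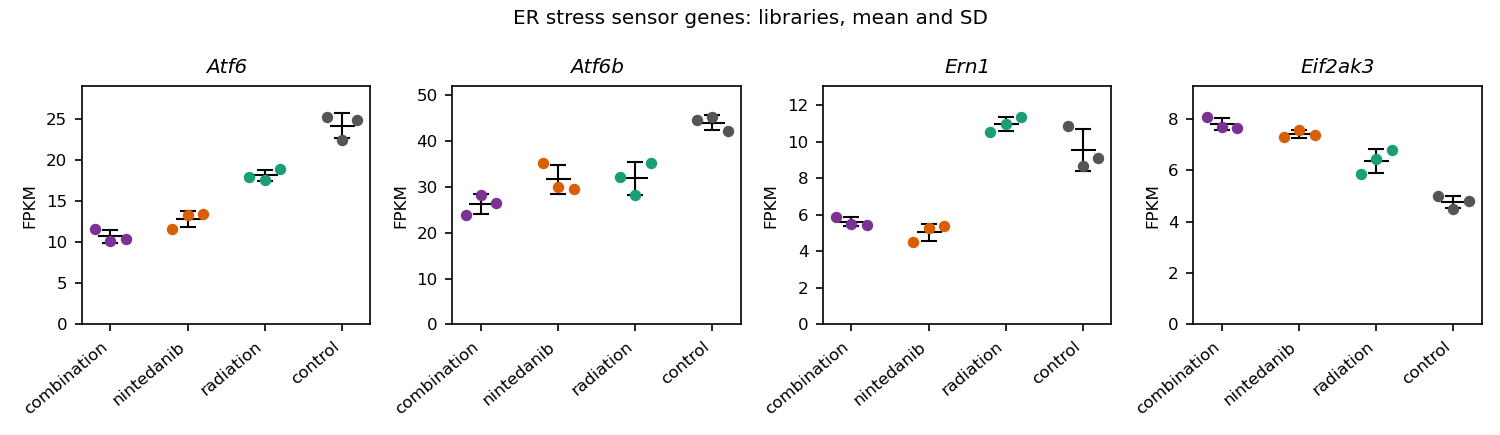
FPKM (vertical axes, from 0) of the sensor genes in the combination, nintedanib, radiation and control groups; points are libraries, bars the mean and SD of 3. Ern1 divides drug-treated from other libraries, Atf6 steps down to 10.7 FPKM on average in the combination group, and Eif2ak3 is lowest in controls at 4.76 FPKM.

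The chaperones did not move as a block: against control, Hspa5 fell in both drug-treated groups while Hsp90b1, Calr and Canx rose. Within irradiated cells the drug gave no call for Hsp90b1 or Canx. Their combination and radiation libraries overlapped, with combination means 8.9 and 3.5% higher. Hspa5 encodes BiP, the main Hsp70 of the ER and the protein that keeps the sensors silent (chr2:34771970-34777547, plus strand). Its level was 214, 214 and 248 FPKM in combination libraries, 221, 178 and 220 in nintedanib, 375, 321 and 324 in radiation, and 324, 373 and 322 in control libraries. The drug-treated libraries all lay below the others, and radiation and control libraries overlapped. In log2 terms the change was -0.59 ± 0.11 for the combination and -0.72 ± 0.11 for nintedanib (limma, adjusted p 0.00109 and 0.00035). For radiation the difference was 0.00 with a 95% interval of -0.24 to 0.24. Within irradiated cells the drug effect was -0.59 ± 0.11 (adjusted p 0.00176).

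Hsp90b1 (Grp94, chr10:86690209-86705509, minus strand), the ER Hsp90 that folds integrins and Toll-like receptors, rose in all treated groups. Combination libraries held 200, 181 and 200 FPKM, nintedanib libraries 152, 136 and 166, radiation libraries 186, 184 and 162, and control libraries 109, 118 and 109. Every treated library exceeded every control, and the nintedanib and combination libraries did not overlap. The log2 fold changes were 0.78 ± 0.09 for the combination, 0.43 ± 0.09 for nintedanib and 0.65 ± 0.09 for radiation (limma, adjusted p 3.59e-05, 0.0027 and 0.00092). The radiation value was the largest rise of a member in that comparison. Hsp90b1 overlaps 2 other tested genes, whose levels reached 3.72 and 2.79 FPKM at most, and the strand setting of the counting is not given in the sources used here.

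Calr, the soluble lectin chaperone (chr8:84841850-84846934, minus strand), rose with the drug and showed no call for radiation. It measured 256, 239 and 334 FPKM in combination libraries, 307, 220 and 211 in nintedanib, 188, 182 and 173 in radiation, and 158, 186 and 163 in control libraries. Drug-treated libraries lay above all others, and their spread was wide, with an SD of 50.7 FPKM in the combination group and 53.1 in the nintedanib group, against 7.59 in radiation and 14.6 in control libraries. Against control, the log2 fold change was 0.70 ± 0.15 for the combination and 0.52 ± 0.15 for nintedanib (limma, adjusted p 0.00298 and 0.0167), and 0.10 ± 0.15 for radiation. The nintedanib call was lost without nintedanib replicate 1, without control replicate 1 or 3, and without the filter on low values (adjusted p 0.0522 to 0.0572).

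Canx, the membrane-bound partner of Calr, changed little in size but tightly. Its mean was 239 ± 11.1 FPKM in combination, 219 ± 8.72 in nintedanib, 231 ± 8.07 in radiation and 191 ± 4.56 in control libraries (SD, n = 3 each). The log2 fold changes of 0.32, 0.20 and 0.27 (SE 0.07 each) were called for combination, nintedanib and radiation, though the nintedanib call failed in 8 of 23 other settings. The radiation call failed in 3, the fits without control replicate 3, radiation replicate 1 or radiation replicate 2 (adjusted p 0.0601 to 0.0737). Hyou1, an Hsp110 family exchange factor for Hspa5, had no call in any comparison, with 23.8 to 32.5 FPKM over the 12 libraries and groups that overlapped throughout.

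Because FPKM is scaled to gene length, levels of the chaperones can be set side by side, as far as the deposited gene model lengths hold. Those lengths were 4229 bases for Hspa5 and 2861 for P4hb, and the annotation behind them is not given in the sources used here. In control cells Hspa5 led the 15 chaperone, isomerase and co-chaperone genes at a mean of 340 FPKM, followed by P4hb at 239, Canx at 191, Pdia3 at 184, Calr at 169 and Hsp90b1 at 112 FPKM. In combination cells P4hb led at 378 FPKM, followed by Calr at 277, Pdia3 at 264, Canx at 239, Hspa5 at 226 and Hsp90b1 at 193 FPKM. Hspa5 made up 11.4 to 11.8% of the summed FPKM of the 15 genes in combination libraries, 11.1 to 13.0% in nintedanib, 18.7 to 20.9% in radiation and 21.8 to 23.5% in control libraries. This share does not depend on how libraries were scaled. The sum itself was 1830 to 2106 FPKM in combination libraries, 1602 to 1865 in nintedanib, 1658 to 1792 in radiation and 1441 to 1583 in control libraries. The sum was above all controls in every treated library, with Hspa5 lower in the drug-treated ones.

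**Figure D3:**
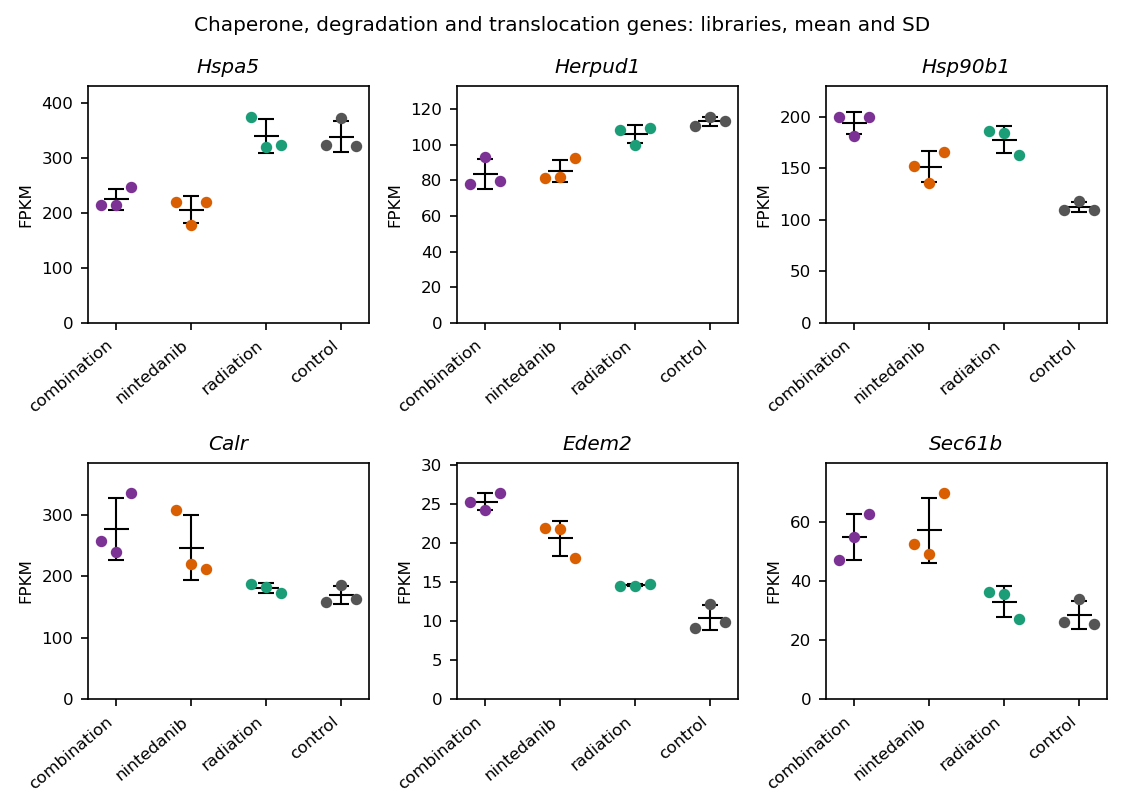
FPKM (vertical axes, from 0) of 6 ER genes in the combination, nintedanib, radiation and control groups; points are libraries, bars the mean and SD of 3. Hspa5 and Herpud1 are lower in drug-treated libraries (means 226 and 207 FPKM for Hspa5) than in radiation and control libraries (340 FPKM each), while Calr, Edem2 and Sec61b are higher in drug-treated libraries and Hsp90b1 is lowest in controls.

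The disulfide isomerases rose more evenly, with 3 of 4 higher with the combination, 3 with nintedanib and 2 with radiation. Over all tested genes, 22.3, 19.7 and 8.04% were higher in the same order. P4hb, the founding isomerase and a subunit of collagen prolyl hydroxylase (chr11:120560298-120573253, minus strand), held 374, 363 and 398 FPKM in combination libraries, 347, 316 and 291 in nintedanib, 266, 272 and 278 in radiation, and 232, 241 and 243 in control libraries. The 4 groups formed separate steps with no overlap between combination and nintedanib, nintedanib and radiation, or radiation and control. The log2 fold changes were 0.66 ± 0.08, 0.41 ± 0.08 and 0.19 ± 0.08 for combination, nintedanib and radiation against control (limma, adjusted p 3.95e-05, 0.00136 and 0.117), and the radiation value passed only under the common-sum rescalings (adjusted p 0.0149 to 0.0254).

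Pdia3, the isomerase that works with Calr and Canx and in MHC class I loading, had log2 fold changes of 0.52, 0.45 and 0.25 for combination, nintedanib and radiation (SE 0.07 each), all called. Pdia6, which regulates Ern1 activity, had 0.61, 0.41 and 0.28 (SE 0.09 each), also all called. Both radiation calls were close to the threshold, with adjusted p of 0.0356 for Pdia3 and 0.0473 for Pdia6, and were lost in 8 and 12 of the 23 other settings. Within irradiated cells the drug raised Pdia3 by 0.26 ± 0.07, Pdia6 by 0.33 ± 0.09 and P4hb by 0.47 ± 0.08 (log2, adjusted p 0.0166, 0.014 and 0.000709). The Pdia3 and Pdia6 calls of that comparison were lost in 3 and 2 other settings, for both genes without radiation replicate 3 or combination replicate 3. Pdia4, at 36.9 to 47.6 FPKM, was called in no comparison, although its treated and control libraries did not overlap in any of the comparisons with control.

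Among the co-chaperones and cofactors, 5 of 6 were higher with the combination, 2 with nintedanib and 1 with radiation, and none was lower. Over all tested genes, 22.3, 19.7 and 8.04% were higher in that order, and 25.0, 22.0 and 9.9% lower. Dnajc3 (p58IPK), a J-domain protein and inhibitor of eIF2 alpha kinases, was called in all 3 comparisons. It measured 23.1, 20.9 and 24.1 FPKM in combination libraries, 22.9, 21.0 and 26.5 in nintedanib, 20.7, 20.3 and 18.5 in radiation, and 16.4, 15.4 and 16.3 in control libraries, so all treated libraries exceeded the controls. Its log2 fold changes were 0.48, 0.52 and 0.29 for combination, nintedanib and radiation (SE 0.09 each), with an adjusted p of 0.041 for radiation that passed the threshold in 16 of the 23 other settings.

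Sdf2l1, a partner of the J-domain protein Dnajb11, showed the largest rise among co-chaperones but also wide spread. Combination libraries held 31.5, 40.8 and 46.7 FPKM, nintedanib libraries 41.5, 29.5 and 31.1, radiation libraries 28.5, 22.5 and 23.4, and control libraries 18.5, 27.4 and 22.4. Drug-treated libraries lay above the controls, and radiation libraries overlapped them. The log2 fold change was 0.77 ± 0.18 for the combination and 0.56 ± 0.18 for nintedanib (limma, adjusted p 0.00416 and 0.026), against 0.13 ± 0.18 for radiation. The nintedanib call was lost in 4 settings, among them the fits without nintedanib replicate 1 and without control replicate 1 or 3. Dnajb11, Creld2 and Manf, which encode a co-chaperone of Hspa5, an isomerase-like protein and a secreted ER stress factor, were called with the combination: their log2 fold changes were 0.48 ± 0.12, 0.37 ± 0.13 and 0.63 ± 0.17. The Creld2 call was lost in 7 of 23 other settings (adjusted p 0.0616 to 0.134). With nintedanib the same genes had 0.24, 0.24 and 0.41, which did not pass on the deposited scale but did in 3, 3 and 5 other settings. None of the 3 was called for the combination against nintedanib (adjusted p 0.297, 0.612 and 0.491). Combination replicate 3 was the highest of the 12 libraries for each of the 3. Manf shares its gene span with Rbm15b on the same strand (up to 17.6 FPKM), so its values are uncertain. Dnajb9 (ERdj4), the J-domain protein that represses Ern1, was at 6.77 to 10.2 FPKM with log2 fold changes of -0.25 ± 0.11 for the combination, -0.13 ± 0.11 for nintedanib and 0.00 ± 0.11 for radiation, none of them called.

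The degradation genes divided into 3 that rose in every treated group, 1 that fell with the drug and 4 without a call. Over all tested genes, 3.69% were higher in all 3 comparisons with control and 22.0% were lower with nintedanib. Edem2, a mannosidase-like protein that starts the trimming of misfolded glycoproteins (chr2:155701677-155729475, minus strand), had the largest rise of all members with the combination. It stood at 25.3, 24.2 and 26.4 FPKM in combination libraries, 22.0, 21.9 and 18.1 in nintedanib, 14.6, 14.5 and 14.8 in radiation, and 9.15, 12.2 and 9.95 in control libraries. The groups did not overlap at any step. The log2 fold change was 1.21 ± 0.10 for the combination (adjusted p 3.81e-06), 0.92 ± 0.10 for nintedanib (adjusted p 3.08e-05) and 0.46 ± 0.10 for radiation (adjusted p 0.0108).

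Selenos, a selenoprotein that recruits the ATPase p97 to the ER membrane, rose in all treated groups, with the same fitted size for each single treatment. Combination libraries held 47.0, 47.8 and 57.6 FPKM, nintedanib libraries 40.4, 38.9 and 42.8, radiation libraries 43.9, 40.6 and 37.6, and control libraries 26.1, 29.7 and 27.8. All treated libraries exceeded the controls, and nintedanib and radiation libraries overlapped. Fold changes on the log2 scale were 0.84 ± 0.09 for the combination and 0.53 ± 0.09 for each single treatment (limma, adjusted p 2.46e-05 for combination, 0.000731 for nintedanib and 0.00313 for radiation). Edem1, a relative of Edem2, had log2 fold changes of 0.33, 0.27 and 0.38 for combination, nintedanib and radiation (SE 0.06 each), and within irradiated cells the drug effect was -0.04 ± 0.06, which was not called.

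Herpud1, a short-lived membrane protein that assembles the Syvn1 ligase complex (chr8:94386438-94395377, plus strand), fell with the drug. It measured 78.2, 93.3 and 79.6 FPKM in combination libraries, 81.1, 81.8 and 92.3 in nintedanib, 108, 99.9 and 109 in radiation, and 111, 116 and 113 in control libraries. Drug-treated libraries lay below all others. The log2 fold change was -0.43 ± 0.08 for the combination and -0.41 ± 0.08 for nintedanib (limma, adjusted p 0.00121 and 0.00215). For radiation it was -0.10 ± 0.08, which was not called although no radiation library reached the lowest control. Pdia3, Syvn1 and Derl2 overlap another tested gene on the opposite strand by 18, 83 and 231 bases, where the counting could split fragments. The ligase Syvn1, its partner Sel1l and the derlins Derl1 and Derl2, which take part in the exit channel, had no call in any comparison; their log2 fold changes against control lay between -0.15 and 0.20.

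Xbp1, the transcript that Ern1 splices and a target of Atf6, was level at 29.3 to 37.4 FPKM over the 12 libraries. Its log2 fold changes were 0.09 ± 0.09, 0.08 ± 0.09 and 0.11 ± 0.09 for combination, nintedanib and radiation, with 95% intervals of -0.11 to 0.28, -0.12 to 0.27 and -0.08 to 0.31. Values per gene do not separate spliced from unspliced Xbp1. Of the translocation genes, Sec61b, a small subunit of the Sec61 channel (chr4:47474658-47483242, plus strand), rose with the drug. It held 47.2, 54.9 and 62.7 FPKM in combination libraries, 52.6, 49.0 and 69.5 in nintedanib, 36.3, 35.7 and 27.0 in radiation, and 26.0, 34.0 and 25.4 in control libraries. Drug-treated libraries lay above the others, and radiation and control libraries overlapped. Nintedanib replicate 3 was the highest library, and the nintedanib call held without it. By limma, the log2 fold change was 0.93 ± 0.17 for the combination and 0.98 ± 0.17 for nintedanib (adjusted p 0.000851 and 0.000757), and the nintedanib value was the largest rise of a member with that treatment. Sec61a1, the pore-forming subunit, was not called in any comparison (27.2 to 38.8 FPKM), and Ssr1, a subunit of the translocon-associated complex, had 0.34, 0.32 and 0.21 for combination, nintedanib and radiation (log2, SE 0.08 each), of which the first 2 were called.

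**Figure D4:**
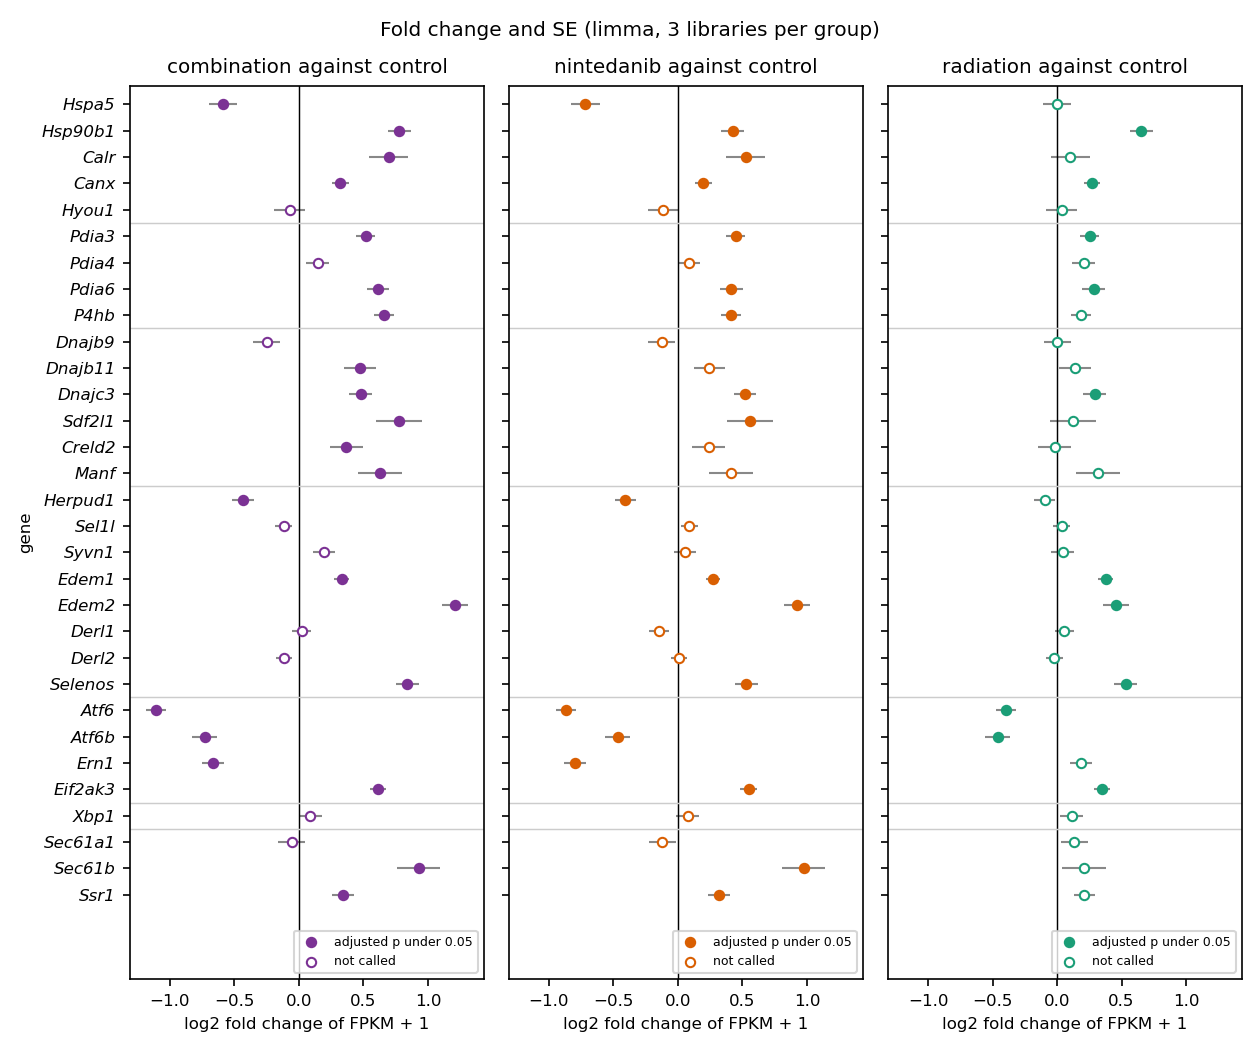
Horizontal axes give the log2 fold change of FPKM + 1 against control with its SE (limma) for the 31 tested ER genes, for combination, nintedanib and radiation; filled points have an adjusted p under 0.05. Edem2 (1.21) and Atf6 (-1.11) mark the ends of the range with the combination. Fewer points are filled for radiation (11) than for nintedanib (19) or the combination (22). The shares of all tested genes called had the same order (17.9, 41.6 and 47.2%).

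Set side by side, the folding, degradation and sensor classes had different medians. The list's rule names Atf6, Ern1 and Eif2ak3 as sensors, and the sensor class here also holds Atf6b. For the combination against control the median log2 fold change was 0.48 over the 15 chaperone, isomerase and co-chaperone genes, 0.11 over 8 degradation genes and -0.70 over 4 sensors. For nintedanib these medians were 0.41, 0.07 and -0.63, and for radiation 0.19, 0.05 and -0.10. Over all tested genes the medians were -0.03, -0.02 and -0.04 for combination, nintedanib and radiation. Of the sensors that the rule names, only Atf6 had a negative fitted change with radiation. The sign of the radiation median for sensors thus rests on counting Atf6b. Among the 15 folding genes, 11 were higher and 1 (Hspa5) lower with the combination, 8 and 1 with nintedanib, and 5 and 0 with radiation. Among the 8 degradation genes, 3 were higher and 1 lower with the combination, 3 and 1 with nintedanib, and 3 and 0 with radiation. Of the 4 sensors, 1 was higher and 3 lower with either drug group, and 1 higher and 2 lower with radiation. Over all tested genes, 22.3 and 25.0% were higher and lower with the combination, 19.7 and 22.0% with nintedanib, and 8.04 and 9.9% with radiation. No test of the classes against each other was made. The summed FPKM of the sensors was 49.6 to 51.6 in combination libraries, 55.9 to 58.7 in nintedanib, 63.2 to 72.4 in radiation and 80.9 to 85.7 in control libraries. Atf6b alone averaged 44.1 FPKM in control libraries. The degradation genes summed to 269 to 285 FPKM in combination libraries, 254 to 268 in nintedanib, 270 to 294 in radiation and 256 to 273 in control libraries.

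Within irradiated cells, the drug lowered the Hspa5 and Herpud1 transcripts and those of 3 sensors, and raised several chaperone and isomerase genes. Against radiation, the combination had 10 of 31 genes higher and 5 lower, where 17.2% of all tested genes were higher and 17.3% lower (34.4% either way). Hspa5, Herpud1, Atf6, Atf6b and Ern1 fell, and the largest rises were those of Edem2 (0.75 ± 0.10), Sec61b (0.72 ± 0.17), Sdf2l1 (0.65 ± 0.18) and Calr (0.59 ± 0.15). The Atf6b call was lost in 12 of the 23 other settings and the Sdf2l1 call in 4. The count of higher genes dropped by over 1.5 times without radiation replicate 3, to 6, and without combination replicate 3, to 5. Combination replicate 3 was the highest of the 3 combination libraries for Calr, Sdf2l1, Creld2 and Sec61b.

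Within drug-treated cells, radiation gave few calls. Against nintedanib, the combination had 1 of 31 genes higher and 0 lower, where 3.17% of all tested genes were higher and 2.37% lower (5.55% either way). The 1 gene was Hsp90b1, with a log2 fold change of 0.35 ± 0.09 and an adjusted p of 0.0428, a call that was lost in 15 of the 23 other settings. By unadjusted p under 0.05 there were 9 members, beside 22.0% of all tested genes. Selenos (0.31 ± 0.09) and P4hb (0.25 ± 0.08) came nearest to the threshold after Hsp90b1, with adjusted p of 0.075 and 0.0835.

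Whether the drug acted differently in irradiated and unirradiated cells was tested as an interaction, the first effect minus the second. None of the 31 members was called by limma, which called 0.00769% of all tested genes. None was called by voom on recovered fragments either, which called 2 of 13012 genes. At an unadjusted p under 0.05 limma gave 5 members, beside 12.9% of all tested genes: Edem1 (-0.31 ± 0.08), Dnajc3 (-0.33 ± 0.12), Hsp90b1 (-0.30 ± 0.13), Eif2ak3 (-0.29 ± 0.09) and Sel1l (-0.24 ± 0.09), with the lowest adjusted p, 0.206, for Edem1. The common-sum rescaling moved the median interaction of all tested genes to -0.10, from 0.01 on the deposited scale. The intervals remained wide: for Hspa5 the interaction was 0.13 with a 95% interval of -0.21 to 0.47, and for Atf6 it was 0.15 with -0.09 to 0.39.

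**Figure D5:**
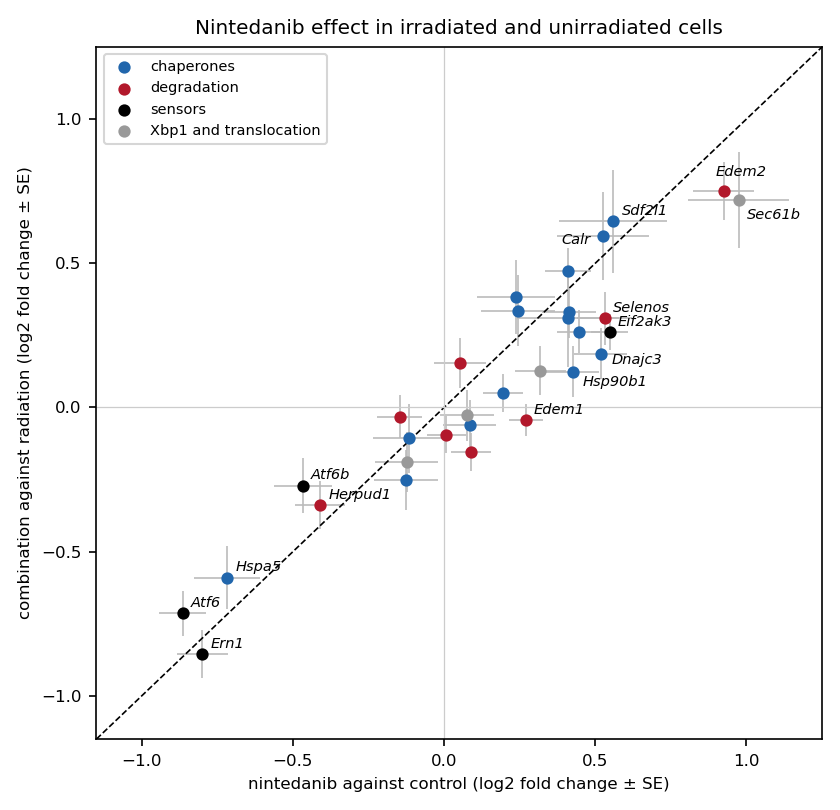
Each point is 1 tested ER gene, with the log2 fold change of nintedanib against control on the horizontal axis and of the combination against radiation on the vertical axis, both with SE, coloured by class; the dashed line marks equal effects. Atf6, Ern1, Hspa5, Herpud1 and Atf6b lie low on both axes, Edem2, Sec61b, Sdf2l1 and Calr high on both, and Hsp90b1, Edem1 and Dnajc3 lie below the line.

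Members with the promoter elements were found among both the higher and the lower genes. Of the 9 tested members with ERSE or ERSE-II, 6 were higher and 2 lower with the combination, 5 and 2 with nintedanib, and 4 and 0 with radiation. The 2 that fell were Hspa5 (ERSE) and Herpud1 (ERSE-II). Of 17 tested members with a window and neither element, 10 were higher and 2 lower with the combination, 9 and 2 with nintedanib, and 5 and 1 with radiation. The shares of all tested genes were 22.3% higher and 25.0% lower with the combination, 19.7 and 22.0% with nintedanib, and 8.04 and 9.9% with radiation. Hspa5 and Hsp90b1 both carried ERSE, in the sequences shown above, and had log2 fold changes of -0.72 and 0.43 with nintedanib. These matches describe letters in a window and not binding.

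Lists of related genes that hold none of the 32 members were counted in the same way. Over all tested genes, 22.3% were higher and 25.0% lower with the combination, 19.7 and 22.0% with nintedanib, and 8.04 and 9.9% with radiation. In the list of other ER folding and glycosylation genes, 18 of 44 tested were higher and 7 lower with the combination, 15 and 4 with nintedanib, and 3 and 2 with radiation, and the median log2 fold changes were 0.17, 0.11 and 0.04. Pdia5, another disulfide isomerase, was at 19.9 ± 1.13 FPKM in combination, 15.0 ± 0.708 in nintedanib, 10.6 ± 0.300 in radiation and 9.55 ± 0.742 in control libraries (SD, n = 3 each). It rose by a log2 fold change of 0.98 ± 0.07 with the combination (adjusted p 1.24e-06). Ero1l, the oxidase that recharges P4hb, fell to 12.3 ± 0.429 FPKM in combination and 14.0 ± 2.0 in nintedanib libraries, against 25.7 ± 1.79 in radiation and 29.3 ± 1.91 in control libraries (SD, n = 3 each). Its log2 fold change was -1.19 ± 0.09 for the combination and -1.02 ± 0.09 for nintedanib. Mogs, the glucosidase that makes the first cut in the sugar chain, fell with the combination (-1.11 ± 0.12), with nintedanib (-0.75 ± 0.12) and with radiation (-0.75 ± 0.12).

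Of 29 other ER-associated degradation genes, 4 were higher and 10 lower with the combination, 4 and 9 with nintedanib, and 1 and 2 with radiation. The shares of all tested genes were 22.3% higher and 25.0% lower, 19.7 and 22.0%, and 8.04 and 9.9% in that order. Rhbdd1, a rhomboid protease of the ER, was at 7.99 FPKM in combination and 8.71 in nintedanib libraries on average, against 17.1 in radiation and 19.4 in control libraries. Erlin1, a membrane scaffold protein, averaged 16.2 FPKM in each drug-treated group, against 35.0 in radiation and 32.1 in control libraries. Selenok, another selenoprotein of the ER membrane, rose by 0.63 ± 0.11 with nintedanib (log2, adjusted p 0.000847). Of 27 other translocation and signal peptidase genes, 13 were higher and 1 lower with the combination, 8 and 3 with nintedanib, and 3 and 1 with radiation. These counts are to be read beside the same shares. Sec61g, the third subunit type of the Sec61 channel, rose by 0.89 ± 0.12 with the combination, and Krtcap2, an oligosaccharyltransferase subunit, fell by 1.01 on the log2 scale with nintedanib.

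Genes in the list of Atf4 and its targets were lower or not called in the treated groups, where Eif2ak3 was higher. A link between these genes and Eif2ak3 was not tested. Of 14 genes in the list of Atf4 and its targets, 12 were lower with the combination, 14 with nintedanib and 5 with radiation, and none was higher. Over all tested genes, 25.0, 22.0 and 9.9% were lower in that order. The median log2 fold changes were -1.16, -1.35 and -0.29. Atf4 itself averaged 185 ± 30.0 FPKM in combination, 166 ± 19.3 in nintedanib, 294 ± 24.7 in radiation and 409 ± 15.0 in control libraries (SD, n = 3 each). Ppp1r15a (GADD34), the phosphatase subunit that reverses eIF2 alpha phosphorylation, averaged 14.2 FPKM in combination, 12.3 in nintedanib, 34.3 in radiation and 63.1 in control libraries.

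Among 16 tested regulators and partners of the sensors, 4 were higher and 6 lower with the combination, 4 and 6 with nintedanib, and 2 and 2 with radiation, again beside 22.3 and 25.0%, 19.7 and 22.0%, and 8.04 and 9.9% of all tested genes. Mbtps2, the protease that makes the second cut in Atf6, had a log2 fold change of -0.78 ± 0.10 with the combination and -0.42 ± 0.10 with radiation (adjusted p 0.000104 and 0.0199). Nfya, a subunit of the factor that binds the CCAAT part of ERSE, had -0.69 ± 0.07 and -0.23 ± 0.07 in the same comparisons (adjusted p 1.32e-05 and 0.0372). Both were also lower with the combination than with nintedanib, by -0.42 ± 0.10 and -0.30 ± 0.07 (adjusted p 0.0403 and 0.0298). Whether these calls hold in other settings was not checked. Fits of 2 groups only called 43 of all tested genes for that comparison, against 722. Creb3l2, a factor related to Atf6 that is cut in the same way, was higher with the combination (0.66 ± 0.08), with nintedanib (0.56 ± 0.08) and with radiation (0.59 ± 0.08).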

How the data were processed

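RNA from 12 cultures was sequenced after column purification and a SMARTER mRNA kit, per the labels' protocols. The authors deposited 1 table of FPKM values for 54532 genes with identifiers, coordinates and gene model lengths, per the file headers. Per the submitters' processing notes, GRCm38 (mm10) served as genome. Not given in the sources used here are the aligner, the counter, the annotation, the strand setting and the scaling of libraries behind the FPKM values. Groups and replicate numbers came from the titles.

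From the deposited FPKM, whole fragments were recovered by multiplying by gene length (100% whole within a tolerance of 0.01). Totals were 16103528 to 18196615 per library, and they bear on counting error only. Replicates of a group differed by more than sampling noise (chi-square per gene 4.30 to 30.2 over 12 pairs).

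Values were tested as log2(FPKM + 1) with limma 3.58.1 (intensity trend, two-sided) in R 4.3.3, in 1 fit of all 12 libraries with a mean per group. Tests covered the 13012 genes that reached an FPKM of 1 in 3 libraries or more, with Benjamini-Hochberg adjustment over all of them in each of 6 comparisons and a threshold of 0.05. The code was tested on simulated data. Promoter windows came from RefSeq (GRCm38.p6), matched by symbol for 27 of 32 genes, and were searched with Python 3.11.15. No window was at hand for Sec61a1, Atf6, Manf, Hyou1 and Derl1. Coordinates of genes are those of the deposited table.

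The members, the 5 lists of related genes, the 4 marker lists and the tests were chosen with earlier results of these data known. For 1 leukocyte marker of the list, values are not reported here. Members called in at least 1 comparison and all sensors are named, and of each related list up to 4 genes per comparison with the smallest adjusted p. Alternatives were another pseudocount, other filters, rescalings, protein-coding genes only, fits of 2 groups, a replicate block, no trend, voom on recovered fragments and leaving out each library.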

Additional observations from a re-analysis of the deposited data

How the results depend on the processing

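Over 23 other settings, 3565 values of single members were compared: 3413 kept their side of the threshold, 107 lost a call, 45 gained one and 0 called values reversed. Among the 3413, 51 values that were uncalled in both settings turned sign. Of 68 called values, 51 stayed called in every setting. Rescaling to a common FPKM sum, also without small RNA genes (a setting chosen after seeing the data), left 1 member lower with radiation. The call of Hsp90b1 for the combination against nintedanib became 0 members without the filter, under both rescalings, with 2 groups only and with the replicate block, and 2 members by voom. In fits of 2 groups only, 43 of all tested genes were called for that comparison, against 722. Under the common FPKM sum the chaperone medians were 0.50 (nintedanib) and 0.30 (radiation), the degradation medians 0.17, 0.16 and 0.15 (combination, nintedanib, radiation) and the sensor medians -0.64, -0.54 and -0.00123 in the same order. Without small RNA genes the degradation medians were 0.13 (nintedanib), 0.13 (radiation) and -0.10 (combination against radiation), and the sensor medians -0.58, -0.0211 and -0.55 in that order. With a pseudocount of 0.1 the sensor medians were -0.75 (combination) and -0.69 (nintedanib). The cause of these shifts was not tested.

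Leaving out 1 library gave 16 to 18 higher and 5 to 6 lower members for the combination, 11 to 15 and 5 for nintedanib, 5 to 9 and 2 for radiation, 5 to 11 and 4 to 5 for the combination against radiation, 0 to 1 and 0 to 1 against nintedanib, and 0 for the interaction. The fit without nintedanib replicate 3 gave 15 higher and 5 lower with nintedanib. Class medians in those fits, in the order combination, nintedanib and radiation against control, then combination against radiation and against nintedanib, were 0.44 to 0.54, 0.32 to 0.42, 0.16 to 0.21, 0.17 to 0.28, 0.0602 to 0.28 for chaperones; 0.0789 to 0.14, 0.0546 to 0.089, 0.0391 to 0.10, -0.0631 to 0.00478, 0.0741 to 0.12 for degradation genes; -0.73 to -0.65, -0.66 to -0.59, -0.16 to -0.0451, -0.55 to -0.44, -0.0891 to -0.0658 for sensors.

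Same-numbered libraries did not correlate more than others. They correlated at -0.298 to 0.202, with 3 of 18 pairs over 0.1. Differently numbered libraries of different groups correlated at -0.244 to 0.29, with 10 of 36 pairs over 0.1. Pairing of libraries under other numbers was not tested. With the replicate block, 16 members were higher and 5 lower for the combination, 13 and 5 for nintedanib, 6 and 2 for radiation, 9 and 4 for the combination against radiation, and 0 and 0 against nintedanib. Depth limits Derl3, at 0 to 10 fragments per library.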
